A study of Arabidopsis thaliana with 12 samples.

Results

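The 10 genes described here are linked to the metabolism or signalling of the growth hormone gibberellin in Arabidopsis thaliana. They were selected by gene identifier from 33602 annotated genes. In order of role they are the synthesis enzymes GA20ox1 (AT4G25420), GA20ox2 (AT5G51810) and GA3ox1 (AT1G15550), the inactivating enzymes GA2ox2 (AT1G30040), GA2ox6 (AT1G02400) and GA2ox8 (AT4G21200), the receptors GID1A (AT3G05120) and GID1B (AT3G63010), the DELLA repressor RGL3 (AT5G17490) and the peptide gene GASA3 (AT4G09600). RNA was sequenced from whole seedlings at 1 week of age in 4 groups of 3 libraries. These were cdk8 mutant seedlings given 50 µM abscisic acid (ABA) for 3 h, cdk8 seedlings given mock treatment, wild-type (WT) seedlings given the same ABA treatment, and WT seedlings given mock treatment. CDK8 is the kinase of a module of Mediator, the complex that links transcription factors to RNA polymerase. The labels give neither the cdk8 allele nor the WT accession and do not say whether the libraries of a group came from separate cultures, so p-values measure the spread between these libraries.

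Bioactive gibberellin is made by successive oxidations. GA20ox enzymes prepare the late precursors, GA3ox enzymes complete the active hormone, and GA2ox enzymes inactivate the hormone or its precursors. The hormone binds a GID1 receptor, and the complex marks DELLA proteins, which restrain growth, for destruction. In seeds and seedlings gibberellin promotes germination and elongation, whereas ABA, the hormone of drought and seed dormancy, restrains both. When gibberellin action falls, many plants raise the genes for synthesis and for receptors and lower those for inactivation, so mRNA levels of these genes read both hormone metabolism and its feedback.

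Each library held 17675785 to 27415053 fragments assigned to genes. Levels are given as CPM (counts relative to the scaled library size), and levels of different genes are compared only as RPKM (CPM per kilobase of exon). CDK8 (AT5G63610) averaged 8.37 CPM in cdk8 with ABA and 6.86 CPM in cdk8 after mock, against 28.4 CPM in WT with ABA and 20.7 CPM in WT after mock, so its RNA was reduced but present in the mutant libraries. Photosynthesis markers (3 genes) summed to 7850 to 8520 CPM in cdk8 with ABA and 22900 to 25300 CPM in cdk8 after mock, and to 6550 to 7730 CPM in WT with ABA and 19400 to 21800 CPM in WT after mock. Root markers (4 genes) summed to 62.2 to 77.6 CPM in cdk8 with ABA and 158 to 206 CPM in cdk8 after mock, and to 77.5 to 95.9 CPM in WT with ABA and 147 to 183 CPM in WT after mock. With ABA all 3 photosynthesis markers and 3 of 4 root markers fell in both genotypes. The remaining root marker, RHD2, rose by 0.68 (log2) in cdk8 and by 0.72 in WT. Under ABA 3 of 4 root markers were lower in cdk8 than in WT, namely PRP3 (-1.17), LRX1 (-1.27) and RHD2 (-0.33). The root marker SCR was not called under ABA (0.25) and was higher in cdk8 than in WT after mock (0.53). The part of these markers in the members' results was not tested. The 3 flower markers summed to 1.0 CPM or less in each library. The libraries cdk8 ABA 2 and WT ABA 3 stood apart from their replicates, with a chi-square per degree of freedom of 24.6 to 30.7 against the other libraries of their groups, where the remaining pairs gave 6.26 to 11.4. Members' calls that changed without either library are given without it. The library cdk8 ABA 3 has a number outside the run of the others, and the labels do not say whether it was prepared with them. The mock columns are headed 0 h, so 3 h of elapsed time and ABA cannot be told apart in the ABA comparisons. In those comparisons 4 of 6 listed clock genes were called higher and 2 lower in each genotype. LHY (AT1G01060), which fell, differed by -4.19 (log2) in cdk8 and -3.68 in WT. After mock, 2 of the 6 were higher and 2 lower in cdk8 than in WT. In whole seedlings, fewer cells of a type and less RNA per cell cannot be told apart.

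The windows of 250 bases before the annotated start are shown first for the genes on which the results turn, read from the reference sequence of TAIR10.1 at the TAIR10 coordinates of the deposited table. Of 120759 introns in that table, 97.9% began with GT and ended with AG in the reference, so the coordinates match it. The window of GASA3, the member with the largest ABA response, lies at chr4:6073613-6073862 on the minus strand, and capitals mark ACGTG, the core of the ABA response element.
GASA3: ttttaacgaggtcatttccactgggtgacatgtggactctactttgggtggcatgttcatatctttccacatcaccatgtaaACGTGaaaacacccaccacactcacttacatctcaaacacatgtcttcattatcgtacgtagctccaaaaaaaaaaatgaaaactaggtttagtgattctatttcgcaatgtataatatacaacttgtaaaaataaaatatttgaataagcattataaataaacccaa
The window of GA2ox8, which was lower with ABA, lies at chr4:11302435-11302684 on the plus strand and carries the most ACGTG matches of the 10, with capitals marking the motif or its reverse complement CACGT.
GA2ox8: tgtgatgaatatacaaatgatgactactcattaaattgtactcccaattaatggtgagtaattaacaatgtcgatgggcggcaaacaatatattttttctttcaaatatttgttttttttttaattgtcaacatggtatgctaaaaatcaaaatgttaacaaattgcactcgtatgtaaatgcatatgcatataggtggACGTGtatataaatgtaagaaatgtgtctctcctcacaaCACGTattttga
The windows of GA2ox6 at chr1:486551-486800 and GID1B at chr3:23289175-23289424, both on the plus strand, belong to genes that rose with ABA and hold no ACGTG match, so they have no capitals.
GA2ox6: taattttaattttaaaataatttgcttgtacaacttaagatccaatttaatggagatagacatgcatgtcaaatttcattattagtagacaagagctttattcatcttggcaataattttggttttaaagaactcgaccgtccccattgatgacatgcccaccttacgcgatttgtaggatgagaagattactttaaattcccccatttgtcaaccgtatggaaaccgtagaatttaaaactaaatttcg
GID1B: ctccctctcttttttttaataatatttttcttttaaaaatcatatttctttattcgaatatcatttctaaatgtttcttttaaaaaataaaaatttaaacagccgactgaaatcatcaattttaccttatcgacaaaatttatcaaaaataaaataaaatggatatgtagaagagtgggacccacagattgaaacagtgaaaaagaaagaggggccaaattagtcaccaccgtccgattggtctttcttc
The windows of the paralogs GA20ox1 at chr4:12992459-12992708 and GA20ox2 at chr5:21056809-21057058, both on the minus strand, are shown for a run of 19 bases, in capitals, that both hold when read in the direction of transcription.
GA20ox1: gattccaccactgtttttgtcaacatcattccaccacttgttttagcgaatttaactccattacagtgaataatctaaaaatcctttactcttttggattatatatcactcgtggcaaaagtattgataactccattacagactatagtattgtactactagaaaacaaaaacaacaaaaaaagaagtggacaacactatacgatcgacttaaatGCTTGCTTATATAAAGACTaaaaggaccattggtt
GA20ox2: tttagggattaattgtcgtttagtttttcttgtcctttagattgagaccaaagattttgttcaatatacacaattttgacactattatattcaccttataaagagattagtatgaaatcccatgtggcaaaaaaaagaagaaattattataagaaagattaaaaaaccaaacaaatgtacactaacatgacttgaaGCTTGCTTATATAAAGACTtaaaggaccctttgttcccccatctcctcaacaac

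ACGTG on either strand occurred in 3 of the 10 windows, those of GASA3, GID1A and GA2ox8, and in 23.1% of all 33322 windows of this length. Its first base lay 168 bases before the start of GASA3, 124 before that of GID1A, and 51 and 12 before that of GA2ox8. Of these 3 genes, GASA3 rose with ABA in both genotypes, GA2ox8 fell and GID1A was not called. CACGTG, which contains ACGTG, was in 0 of 10 windows and in 6.75% of all windows. CCGAC, the core of the drought response element, was in 2 of 10 (GID1A and GID1B) against 13.1% of all windows, and TAACAA, a gibberellin response element, was in 2 of 10 (GA2ox8 and GID1A) against 28.9%. Both strands were searched for each motif, and a match is only a description of the letters. The 19 bases shared by GA20ox1 and GA20ox2 begin 35 bases before the first gene and 54 before the second, and among the 33322 windows these 2 alone held it. The longest run shared by any other pair of members was 13 bases. This run was looked for after the sequences were seen.

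With ABA, the synthesis genes GA20ox1 and GA3ox1 were lower in both genotypes, and the inactivating gene GA2ox6, the receptor gene GID1B and the peptide gene GASA3 were higher. In cdk8, 9 of 10 members passed the test (5 higher, 4 lower), against 61.0% of all 21151 genes tested (30.6% higher, 30.4% lower). In WT, 6 of 10 passed (3 higher, 3 lower), against 64.7% of all genes (31.9% higher, 32.8% lower). The WT share is near that of all genes. The members and lists were chosen with earlier results of these data known. Their shares beside those of all genes, here and below, are therefore a description and not a test. The median log2 fold change of the members was 0.47 in cdk8 and 0.28 in WT, and the median over all genes was within 0.0116 of 0 in each comparison reported here. Each group enters more than 1 comparison and all groups share the estimate of the spread, so the comparisons are not independent of each other. A gene is called at an adjusted p below 0.05 in edgeR's quasi-likelihood test over all genes, and ± after a log2 fold change gives its standard error. All 10 members had enough counts to be tested.

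**Figure D1:**
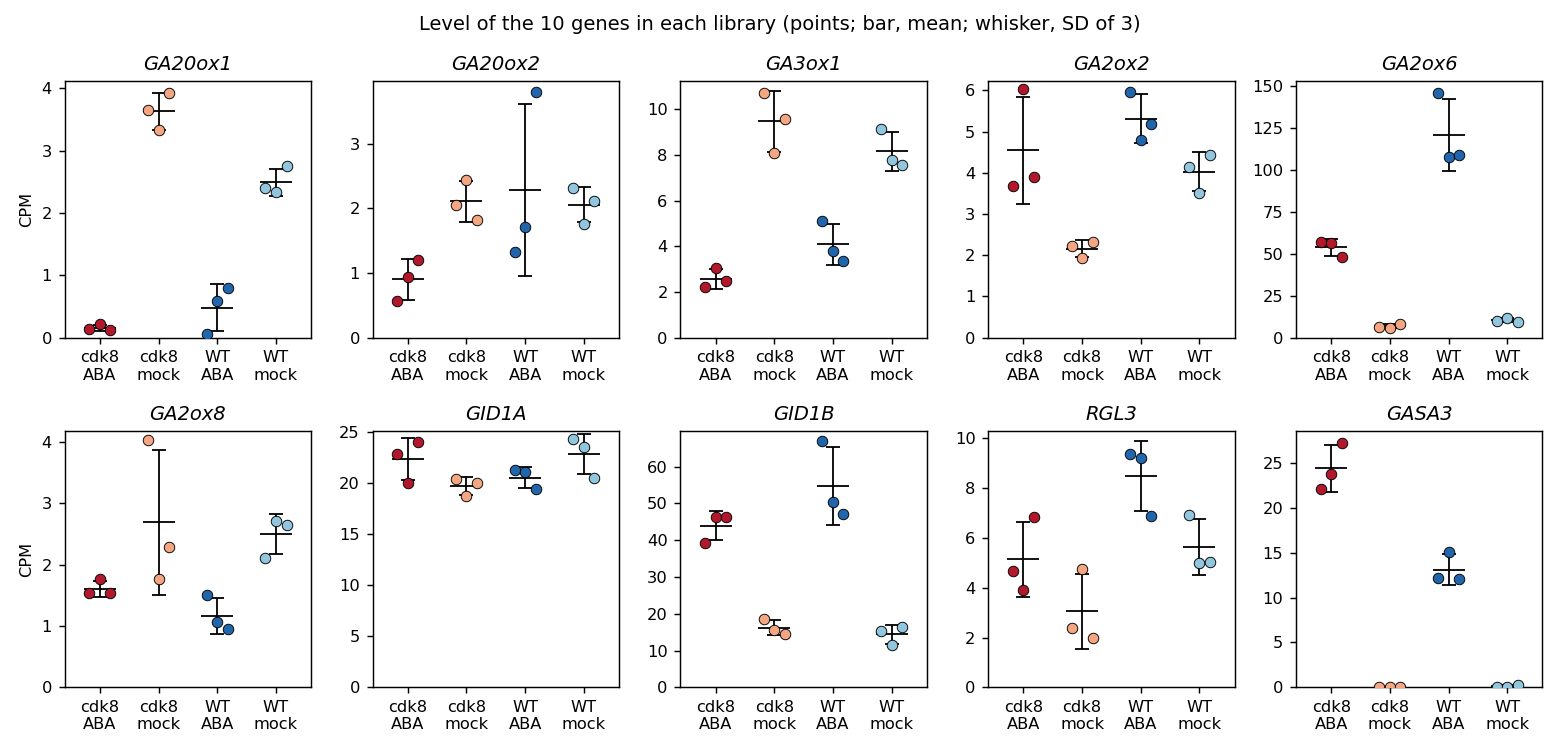
CPM of the 10 genes (1 panel each, linear axis from 0) in the libraries of cdk8 ABA, cdk8 mock, WT ABA and WT mock. Points are libraries, bars are means and whiskers are SD of 3 libraries. GASA3 is at or near 0 in all mock libraries and at 12.1 to 27.2 CPM in all ABA libraries, while GID1A stays between 18.7 and 24.3 CPM throughout.

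GA20ox1, which lies on chromosome 4 at 12990884 to 12992458 (minus strand, 3 exons), prepares the precursor that GA3ox enzymes convert. It stood at 0.142, 0.215 and 0.12 CPM in cdk8 with ABA, against 3.65, 3.33 and 3.92 CPM in cdk8 after mock. In WT it stood at 0.0579, 0.591 and 0.793 CPM with ABA, against 2.40, 2.33 and 2.75 CPM after mock. ABA and mock libraries did not overlap in either genotype, and all 3 cdk8 mock libraries were above the WT mock libraries. GA20ox1 fell by 4.45 ± 0.45 on the log2 scale in cdk8 (adjusted p = 1.04e-06) and by 2.34 ± 0.42 in WT (adjusted p = 0.000203). The low ABA levels rest on 3 to 6 fragments per library in cdk8 and on 1, 10 and 15 fragments in WT.

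GA20ox2, the paralog, was at 0.568, 0.932 and 1.2 CPM in cdk8 with ABA, against 2.06, 2.44 and 1.82 CPM in cdk8 after mock. WT libraries had 1.33, 1.71 and 3.81 CPM with ABA, against 2.31, 1.76 and 2.11 CPM after mock. The groups were separate in cdk8 and overlapped in WT, where WT ABA 3 was far above the other libraries. GA20ox2 fell by 1.22 ± 0.38 in cdk8 (adjusted p = 0.0114). In WT its log2 fold change was 0.16 ± 0.35 (adjusted p = 0.706), and -0.43 without WT ABA 3 (adjusted p = 0.249).

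GA3ox1, the enzyme of the final activating step, lies on chromosome 1 at 5344478 to 5346166 (minus strand, 2 exons). It was at 2.20, 3.05 and 2.49 CPM in cdk8 with ABA, against 10.7, 8.10 and 9.60 CPM in cdk8 after mock. In WT it was at 5.10, 3.78 and 3.38 CPM with ABA, against 9.13, 7.80 and 7.55 CPM after mock. The 3 cdk8 ABA libraries were the lowest of all 12, followed by the 3 WT ABA libraries, with no overlap between these groups or with mock. GA3ox1 fell by 1.88 ± 0.18 in cdk8 (adjusted p = 7.75e-07) and by 1.00 ± 0.18 in WT (adjusted p = 0.000268).

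GA2ox6, which inactivates gibberellin, is encoded on chromosome 1 at 486801 to 489577 (plus strand, 3 exons). It stood at 57.1, 56.3 and 48.0 CPM in cdk8 with ABA, against 6.30, 6.05 and 8.06 CPM in cdk8 after mock. In WT it stood at 146, 108 and 109 CPM with ABA, against 10.2, 11.7 and 9.45 CPM after mock. The 4 groups did not overlap, and the order was WT ABA, cdk8 ABA, WT mock and cdk8 mock from high to low. GA2ox6 rose by 2.98 ± 0.15 in cdk8 (adjusted p = 1.13e-09) and by 3.53 ± 0.15 in WT (adjusted p = 1.51e-10).

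GA2ox2, another inactivating enzyme, was at 3.69, 6.02 and 3.89 CPM in cdk8 with ABA, against 2.22, 1.94 and 2.33 CPM in cdk8 after mock. WT libraries had 5.96, 4.79 and 5.18 CPM with ABA, against 4.13, 3.52 and 4.43 CPM after mock. The 3 cdk8 mock libraries were the lowest of the 12, and ABA and mock did not overlap in either genotype. GA2ox2 rose by 1.06 ± 0.21 in cdk8 (adjusted p = 0.000552), and its log2 fold change in WT was 0.40 ± 0.20 (adjusted p = 0.0955), called only without cdk8 ABA 2 (adjusted p = 0.0436) among the fits that left out a library. GA2ox8, which acts on early precursors, was at 1.53, 1.76 and 1.53 CPM in cdk8 with ABA, against 4.02, 1.77 and 2.28 CPM in cdk8 after mock. WT levels were 1.51, 1.06 and 0.952 CPM with ABA, against 2.11, 2.71 and 2.64 CPM after mock. The cdk8 groups nearly touch at 1.76 and 1.77 CPM, and the WT groups are well apart. GA2ox8 fell by 0.75 ± 0.28 in cdk8 (adjusted p = 0.0351) and by 1.08 ± 0.31 in WT (adjusted p = 0.00704). The cdk8 call was lost without cdk8 ABA 1 (adjusted p = 0.0839), cdk8 ABA 3 (adjusted p = 0.0808) or cdk8 mock 1 (-0.35, adjusted p = 0.279).

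GID1B, a gibberellin receptor on chromosome 3 at 23289425 to 23291486 (plus strand, 2 exons), was at 39.3, 46.3 and 46.3 CPM in cdk8 with ABA, against 18.5, 15.6 and 14.6 CPM in cdk8 after mock. In WT it was at 67.0, 50.3 and 47.2 CPM with ABA, against 15.3, 11.4 and 16.4 CPM after mock. Every ABA library was above every mock library. GID1B rose by 1.44 ± 0.16 in cdk8 (adjusted p = 2.1e-06) and by 1.93 ± 0.16 in WT (adjusted p = 1.1e-07).

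Its paralog GID1A, with the same receptor function, was at 22.8, 20 and 24.0 CPM in cdk8 with ABA, against 20.4, 18.7 and 20 CPM in cdk8 after mock. In WT it was at 21.2, 21.1 and 19.4 CPM with ABA, against 24.3, 23.5 and 20.5 CPM after mock. The ABA and mock groups overlapped in both genotypes. The log2 fold change was 0.18 ± 0.10 in cdk8 (adjusted p = 0.137) and -0.15 ± 0.10 in WT (adjusted p = 0.202), and upper-quartile scaling called GID1A lower in WT (-0.29, adjusted p = 0.018). Without cdk8 ABA 2 and WT ABA 3 together it was called higher in cdk8 (0.24, adjusted p = 0.0479). Per kilobase, the log2 ratio of GID1B to GID1A within a library averaged 0.89 ± 0.21 in cdk8 with ABA and -0.38 ± 0.16 in cdk8 after mock (SD, n = 3 each). In WT it averaged 1.31 ± 0.23 with ABA and -0.77 ± 0.36 after mock (SD, n = 3 each), so GID1B transcripts exceeded those of GID1A in each ABA library and were below them in each mock library.

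RGL3, a DELLA repressor, was at 4.69, 3.91 and 6.83 CPM in cdk8 with ABA, against 2.38, 4.77 and 2.0 CPM in cdk8 after mock. The WT levels were 9.38, 9.23 and 6.87 CPM with ABA, against 6.92, 4.99 and 5.02 CPM after mock. The groups overlapped in both genotypes. RGL3 rose by 0.76 ± 0.30 in cdk8 (adjusted p = 0.0389), and its log2 fold change in WT was 0.59 ± 0.28 (adjusted p = 0.08). Both sides of the threshold depended on single libraries. The cdk8 call was lost without cdk8 ABA 1 (adjusted p = 0.0534), cdk8 ABA 3 (adjusted p = 0.175), cdk8 mock 1 (adjusted p = 0.138) or cdk8 mock 3 (adjusted p = 0.17). The WT rise was called without cdk8 mock 2 (adjusted p = 0.0316) or WT ABA 3 (adjusted p = 0.0467).

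GASA3, a member of a family of small secreted peptides named for gibberellin induction, lies on chromosome 4 at 6072804 to 6073612 (minus strand, 3 exons). It stood at 22.1, 23.8 and 27.2 CPM in cdk8 with ABA, against 0, 0.0555 and 0.0466 CPM in cdk8 after mock. In WT it stood at 12.2, 15.1 and 12.1 CPM with ABA, against 0, 0 and 0.317 CPM after mock. The mock levels are 2 fragments in all for cdk8 and 6 for WT, where all 6 were in WT mock 3. Without that library no GASA3 fragment is left in WT mock, and a fitted fold is then no measurement. The ratio of ABA to mock in cdk8 was 708-fold, with an exact 95% interval of 196 to 5850 that covers counting error only. GASA3 rose by 6.97 in WT (adjusted p = 4.47e-09), or 6.37 without WT mock 2, and passed the test in cdk8 as well (adjusted p = 9.26e-10). The WT fold rests on 6 fragments in WT mock 3, so no standard error is given for it. Its relative GASA2 (AT4G09610), whose counts could be shared with it, had 36 fragments in all 12 libraries against 2666 for GASA3.

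Some seed and embryo markers moved with GASA3. Of 6 tested, 5 rose with ABA in cdk8 and 2 in WT, where EM1 (7.0) and EM6 (5.93) rose and OLEO1 (-0.65), OLEO2 (-0.87), CRA1 (-2.27) and CRU3 (-1.83) did not pass the test. The median log2 fold change of the 6 was 2.78 in cdk8 and -0.76 in WT. All 7 genes summed to 30.5 to 101 CPM in cdk8 with ABA and 3.02 to 11.6 CPM in cdk8 after mock, and to 25.2 to 34.2 CPM in WT with ABA and 0.713 to 13.3 CPM in WT after mock. WT mock 3, the WT mock library with GASA3 fragments, had the sum of 13.3 CPM. No marker of the list was at 0 in all libraries. In cdk8 with ABA the library with the lowest marker sum, cdk8 ABA 2 at 30.5 CPM, had 23.8 CPM of GASA3. OLEO1, OLEO2 and CRU3 were called higher with ABA in cdk8, but their ABA and mock libraries overlapped there. The part of these markers in the GASA3 result was not tested.

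**Figure D2:**
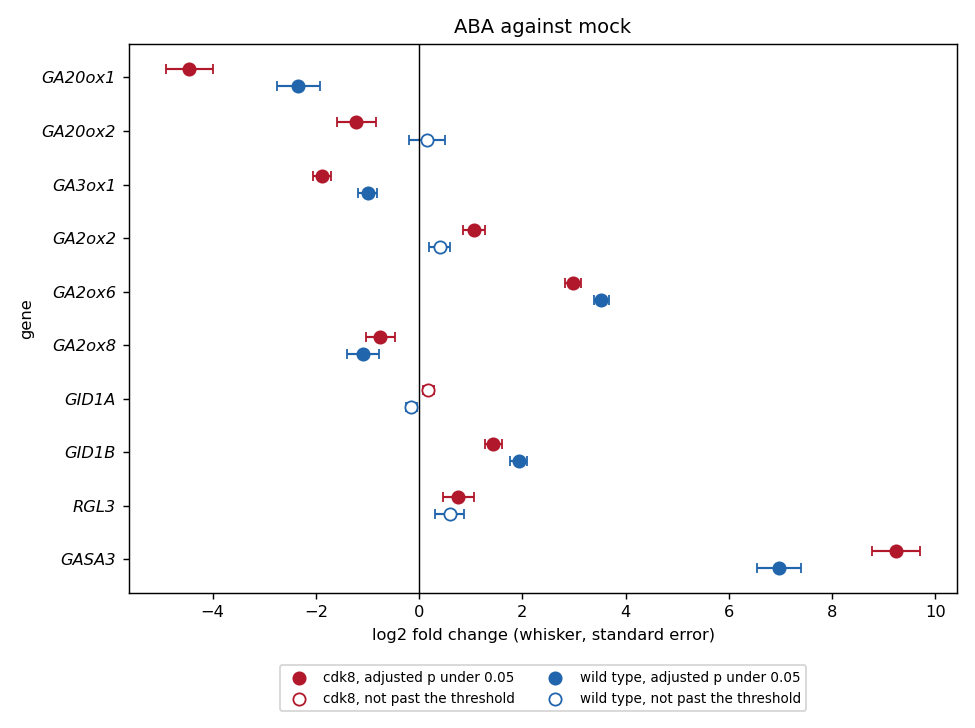
Log2 fold change of ABA against mock (x axis) for the 10 genes (y axis), with cdk8 above WT in each row. Whiskers are standard errors, and filled points passed an adjusted p of 0.05. GA20ox1, GA3ox1 and GA2ox8 lie left of 0 and GA2ox6, GID1B and GASA3 right of 0 in both genotypes. The GASA3 points and whiskers rest on 2 mock fragments in cdk8 and 6 in WT.

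Whether the mutation altered these responses was read from the difference of the ABA responses, cdk8 minus WT. Under edgeR, 0 of 10 members passed the test, where 5.21% of all genes did (2.37% higher, 2.85% lower), and 7 members had an unadjusted p below 0.05, as did 21.4% of all genes. DESeq2 called 2 members and 8.48% of all genes, and limma-voom 0 members and 4.71% of all genes. GA20ox1 had a difference of -2.11 ± 0.67 (adjusted p = 0.0834) and GA3ox1 of -0.88 ± 0.26 (adjusted p = 0.0675). DESeq2 gave -2.17 for GA20ox1 (adjusted p = 0.0146) and -0.90 for GA3ox1 (adjusted p = 0.0314). Single libraries moved both values. GA20ox1 was called without WT ABA 1 (-2.62, adjusted p = 0.00692) and was at -1.53 without WT ABA 3 (adjusted p = 0.218), and GA3ox1 without cdk8 ABA 2 (-1.02, adjusted p = 0.0392), WT ABA 3 (-1.0, adjusted p = 0.0365) or both (-1.15, adjusted p = 0.0166).

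For the other members the difference was -1.39 ± 0.52 for GA20ox2 (adjusted p = 0.138), 0.66 ± 0.29 for GA2ox2 (adjusted p = 0.206) and -0.55 ± 0.21 for GA2ox6 (adjusted p = 0.136). It was -0.49 ± 0.22 for GID1B (adjusted p = 0.211) and 0.33 ± 0.14 for GID1A (adjusted p = 0.197). GA2ox8 at 0.34 ± 0.42 and RGL3 at 0.17 ± 0.41 had a standard error larger than the difference. For GASA3 the fitted difference of 2.28 ± 1.29 rests on the 8 mock fragments and turned to -1.88 without WT mock 3.

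Under ABA, cdk8 seedlings had less RNA for 3 enzymes of gibberellin metabolism and more for GASA3 than WT seedlings. In all, 4 of 10 members passed the test (1 higher, 3 lower), against 23.6% of all genes (10.6% higher, 13% lower), with a median of -0.49 over the members. From the levels given above, GA2ox6 fell by 1.17 ± 0.13 in cdk8 relative to WT (adjusted p = 5.05e-05) and the groups were far apart. GASA3 rose by 0.89 ± 0.21 (adjusted p = 0.00859), with every cdk8 library above every WT library. In the same comparison 5 of 6 tested seed markers were higher in cdk8. OLEO1, OLEO2, CRA1 and CRU3 were lower in cdk8 ABA 2 than in its replicates, such as CRU3 at 16.4, 0.86 and 4.34 CPM in cdk8 ABA 1, 2 and 3. The part of these markers in the GASA3 difference was not tested.

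GA20ox2 fell by 1.36 ± 0.37 (adjusted p = 0.0189) and GA3ox1 fell by 0.66 ± 0.19 (adjusted p = 0.0256), with no overlap of the groups for either gene. Both calls depended on single libraries. In a fit of only the 2 ABA groups neither gene passed (adjusted p = 0.0763 for GA20ox2 and 0.0853 for GA3ox1). For GA20ox2 the call was lost without WT ABA 3 (-0.76, adjusted p = 0.119) or cdk8 ABA 1 (-1.12, adjusted p = 0.0786). For GA3ox1 it was lost without cdk8 ABA 1 (-0.57, adjusted p = 0.0974), cdk8 ABA 3 (-0.65, adjusted p = 0.0656) or WT ABA 1 (-0.47, adjusted p = 0.108). The log2 fold change of GA20ox1 was -1.57 ± 0.58 (adjusted p = 0.065), with WT ABA 1 below all cdk8 libraries, and -2.08 without that library (adjusted p = 0.00258). Without WT ABA 3, the WT library of highest GA20ox1, it was -0.98 (adjusted p = 0.311). DESeq2 called it at -1.61 (adjusted p = 0.0216).

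The remaining members did not pass under ABA. The log2 fold change was -0.73 ± 0.28 for RGL3 (adjusted p = 0.0718), where the cdk8 libraries were below the WT libraries, and -0.32 ± 0.15 for GID1B (adjusted p = 0.136), likewise without overlap. GID1B was called without cdk8 ABA 2 and WT ABA 3 together (-0.47, adjusted p = 0.0477). The value was -0.23 ± 0.20 for GA2ox2 (adjusted p = 0.431), 0.45 ± 0.31 for GA2ox8 (adjusted p = 0.319) and 0.12 ± 0.10 for GID1A (adjusted p = 0.424). RGL3 was called by DESeq2 (adjusted p = 0.0476) and limma-voom (adjusted p = 0.0354), and without cdk8 ABA 3 (-0.99, adjusted p = 0.0345) or cdk8 mock 2 (adjusted p = 0.0304).

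After mock treatment, 2 inactivating enzymes were lower in cdk8 than in WT. These were 2 of 10 members (0 higher, 2 lower), against 13.1% of all genes (5.15% higher, 8.0% lower), with a median of -0.09 over the members. GA2ox2 fell by 0.89 ± 0.22 (adjusted p = 0.0156) and GA2ox6 fell by 0.61 ± 0.16 (adjusted p = 0.0208), without overlap of the groups for either. The GA2ox2 call was lost without cdk8 mock 2 (adjusted p = 0.0684) or WT mock 3 (adjusted p = 0.0623). The GA2ox6 call was lost without cdk8 mock 1 (adjusted p = 0.0768), cdk8 mock 2 (adjusted p = 0.0954) or WT mock 2 (adjusted p = 0.084).

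Of the members not called after mock, RGL3 had a log2 fold change of -0.90 ± 0.30 (adjusted p = 0.0643), with every cdk8 library below every WT library. RGL3 passed in DESeq2 (adjusted p = 0.0298), in limma-voom (adjusted p = 0.0481), and without cdk8 mock 2 (-1.36, adjusted p = 0.0115), cdk8 ABA 2 (adjusted p = 0.0456) or cdk8 ABA 3 (adjusted p = 0.0493). GA20ox1 had 0.54 ± 0.33 (adjusted p = 0.302), and GID1A had -0.21 ± 0.10 (adjusted p = 0.186), both without overlap. GA3ox1 at 0.22 ± 0.17, GID1B at 0.17 ± 0.16, GA2ox8 at 0.11 ± 0.28 and GA20ox2 at 0.03 ± 0.35 had overlapping groups. For GASA3 the counts of 2 in cdk8 and 6 in WT gave a ratio of 0.347 with an exact 95% interval of 0.0343 to 1.94.

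**Figure D3:**
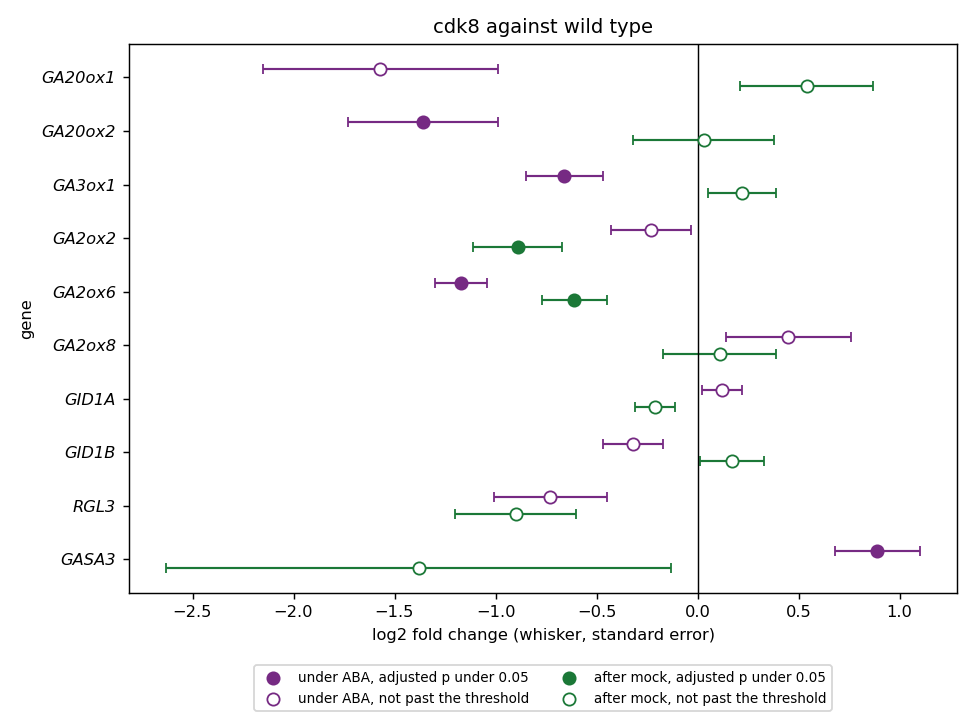
Log2 fold change of cdk8 against WT (x axis) for the 10 genes (y axis), under ABA above after mock in each row. Whiskers are standard errors, and filled points passed an adjusted p of 0.05. GA2ox6 is the gene filled in both treatments, at -1.17 under ABA and -0.61 after mock. The comparisons use different libraries for their means but share the estimate of the spread over all 12 libraries.

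GA2ox6 was the most abundant transcript of its family per length in every group. The 7 GA2ox genes together gave 46.1 ± 3.85 RPKM in cdk8 with ABA and 11.4 ± 1.12 RPKM in cdk8 after mock (SD, n = 3 each). In WT they gave 97.2 ± 16.4 RPKM with ABA and 16.3 ± 1.08 RPKM after mock (SD, n = 3 each). GA2ox6 made up 87.1% of that sum in cdk8 with ABA and 44.6% in cdk8 after mock, and 92.9% in WT with ABA and 47.8% in WT after mock. Within the family the paralogs moved in opposite directions with ABA. GA2ox1 (AT1G78440) fell by 4.31 in cdk8 (adjusted p = 1.93e-07) and passed the test as lower in WT (adjusted p = 3.17e-08), where 3 fragments with ABA against 255 after mock gave a ratio of 0.0135 with an exact 95% interval of 0.00276 to 0.0398. GA2ox7 (AT1G50960), which acts on precursors, passed as higher in cdk8 (adjusted p = 0.0125), with 50 fragments with ABA against 3 after mock, a ratio of 12 with an exact 95% interval of 3.88 to 60.2. That call was lost without cdk8 mock 3 (adjusted p = 0.0537). In WT it passed as higher as well (adjusted p = 0.000444), with 127 fragments with ABA against 9 after mock, all 9 of them in WT mock 2. GA2ox7 was also lower in cdk8 than in WT under ABA (-1.92, adjusted p = 0.0313), a call lost without WT ABA 3 (-1.37, adjusted p = 0.136), cdk8 ABA 1 (adjusted p = 0.118) or cdk8 ABA 3 (adjusted p = 0.0767). GA2ox4 (AT1G47990) rose by 1.07 in cdk8 (adjusted p = 0.0374) and differed by 0.04 in WT (adjusted p = 0.952). The GA2ox4 call was lost in 4 of 12 fits without 1 library, and the value was 1.82 without cdk8 mock 3. GA2ox3 (AT2G34555) was too low to test.

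The genes that made up the GA20ox sum differed between ABA and mock, while the sums of ABA and mock libraries overlapped in both genotypes. The sum was 4.61 ± 0.283 RPKM in cdk8 with ABA and 4.49 ± 0.0538 RPKM in cdk8 after mock, and 3.91 ± 1.03 RPKM in WT with ABA and 3.55 ± 0.215 RPKM in WT after mock (SD, n = 3 each). Summed as CPM, without division by length, the means in cdk8 stood in the other order, at 5.52 ± 0.344 with ABA and 5.95 ± 0.0798 after mock (SD, n = 3 each), again with overlap. GA20ox5 (AT1G44090), a paralog named for its top rank in the family list, was at 4.65, 3.98 and 4.58 CPM in cdk8 with ABA, against 0.106, 0.0555 and 0 CPM in cdk8 after mock. In WT it was at 2.43, 2.13 and 1.90 CPM with ABA, against 0 CPM in all 3 mock libraries. Its 114 fragments with ABA were 43.5-fold above a floor of 3 fragments over the group, and the exact 95% interval began at 34.8-fold. GA20ox5 passed the test in cdk8 (adjusted p = 9.83e-08) and WT (adjusted p = 3.43e-07), and was higher in cdk8 than in WT under ABA by 1.03 ± 0.25 (adjusted p = 0.0118), a call lost without cdk8 ABA 1 (adjusted p = 0.0506). It made up 82.5% of the family sum in cdk8 with ABA and 1.03% in cdk8 after mock, and 50.5% in WT with ABA and 0% in WT after mock. GA20ox1 made up 2.73% in cdk8 with ABA and 63.2% in cdk8 after mock, and 8.91% in WT with ABA and 54.7% in WT after mock. GA20ox2 made up 13.9% in cdk8 with ABA and 33.5% in cdk8 after mock, and 39.5% in WT with ABA and 41.3% in WT after mock. In the WT ABA library with the highest GA20ox2 share, 53.5%, that gene exceeded GA20ox5. GA20ox3 (AT5G07200) and GA20ox4 (AT1G60980) were too low to test.

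**Figure D4:**
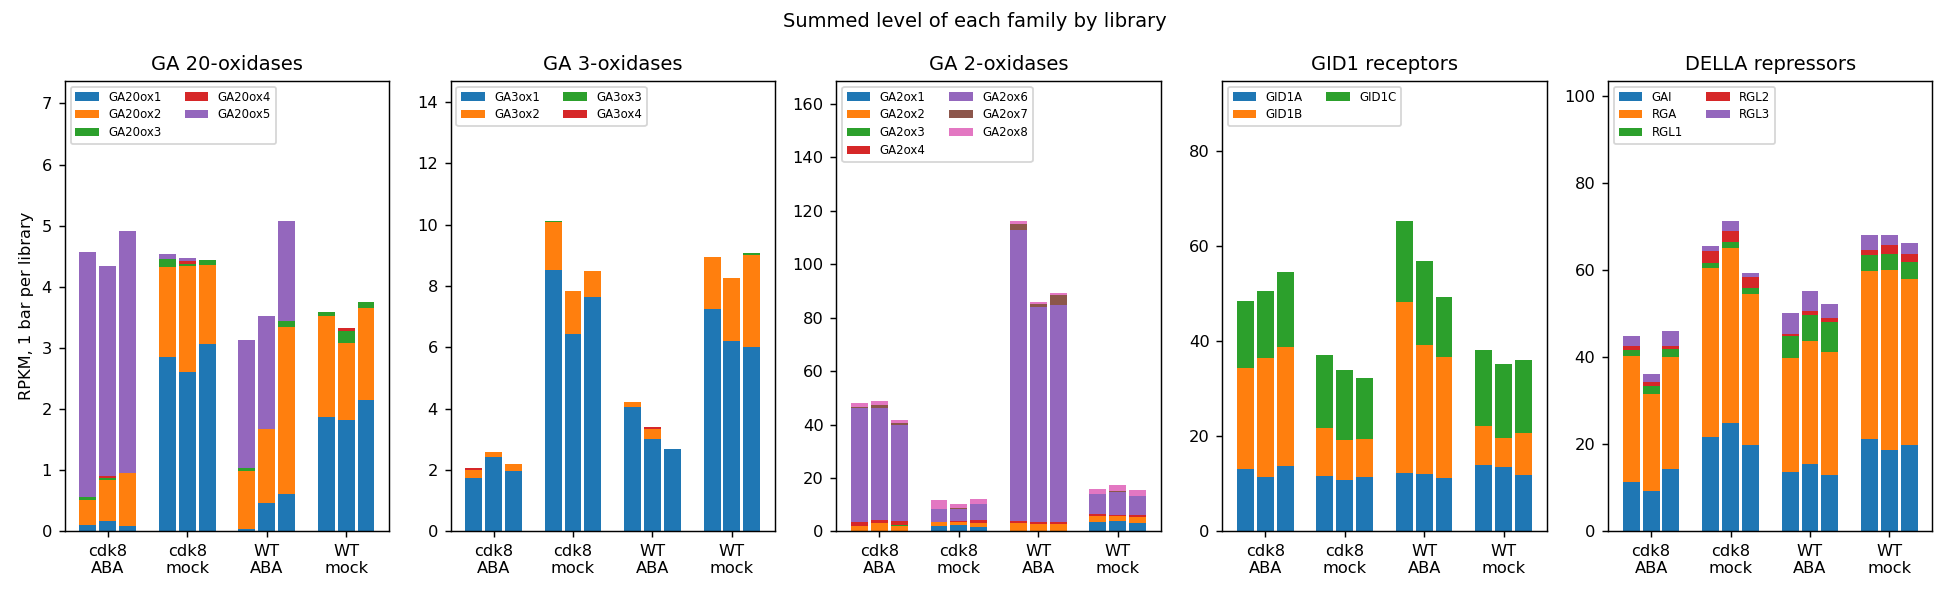
Summed RPKM (y axis, linear from 0) of the genes of 5 families, with 1 stacked bar per library in cdk8 ABA, cdk8 mock, WT ABA and WT mock. The GA20ox panel shows GA20ox1 and GA20ox2 in mock libraries and GA20ox5 and GA20ox2 in ABA libraries, and the GA2ox panel shows GA2ox6 making up 85.9% to 93.8% of the sum in each ABA library.

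GA3ox transcripts summed to 2.29 ± 0.265 RPKM in cdk8 with ABA and 8.83 ± 1.2 RPKM in cdk8 after mock, and to 3.44 ± 0.762 RPKM in WT with ABA and 8.77 ± 0.437 RPKM in WT after mock (SD, n = 3 each). GA3ox2 (AT1G80340), the nearest paralog of GA3ox1, fell by 2.51 ± 0.50 in cdk8 (adjusted p = 0.000551) and by 3.79 ± 0.54 in WT (adjusted p = 2.88e-05). GID1 transcripts summed to 51.1 ± 3.16 RPKM in cdk8 with ABA and 34.4 ± 2.47 RPKM in cdk8 after mock, and to 57.1 ± 7.98 RPKM in WT with ABA and 36.4 ± 1.56 RPKM in WT after mock (SD, n = 3 each). GID1B provided 46.3% of that sum in cdk8 with ABA and 25.4% in cdk8 after mock, and 51.6% in WT with ABA and 21.2% in WT after mock. The receptor GID1C (AT5G27320) differed with ABA by 0.04 ± 0.12 in cdk8 (adjusted p = 0.815) and by 0.01 ± 0.12 in WT (adjusted p = 0.925).

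In the DELLA family RGA (AT2G01570) made up 60.6% and GAI (AT1G14920) 27.5% of the summed RPKM in cdk8 with ABA. RGL3 was a small part of it, at 5.96% in cdk8 with ABA and 2.26% in cdk8 after mock, and 8.03% in WT with ABA and 4.14% in WT after mock. The family sum was 42.4 ± 5.38 RPKM in cdk8 with ABA and 65.5 ± 5.95 RPKM in cdk8 after mock, and 52.5 ± 2.61 RPKM in WT with ABA and 67.5 ± 1.08 RPKM in WT after mock (SD, n = 3 each). With ABA, GAI fell by 0.92 in cdk8 (adjusted p = 4.26e-05) and by 0.51 in WT (adjusted p = 0.00499), RGA fell by 0.56 in cdk8 (adjusted p = 0.000197) and by 0.51 in WT (adjusted p = 0.000395), and RGL2 (AT3G03450) fell by 1.60 in cdk8 (adjusted p = 2.65e-05) and by 1.09 in WT (adjusted p = 0.00133). RGL1 (AT1G66350) rose by 0.42 in cdk8 (adjusted p = 0.0398) and by 0.66 in WT (adjusted p = 0.000928), and the cdk8 call was lost in 8 of 12 fits without 1 library. RGL1 was the DELLA gene called between genotypes, with a log2 fold change of cdk8 against WT of -1.91 ± 0.15 under ABA (adjusted p = 3.33e-06) and -1.68 ± 0.16 after mock (adjusted p = 2.84e-05).

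Beyond the 10 members, 57 further genes of the pathway were listed, of which 43 could be tested. With ABA, 17 rose and 15 fell in cdk8, where 30.6% of all genes rose and 30.4% fell, and 17 rose and 13 fell in WT, where 31.9% of all genes rose and 32.8% fell. Under ABA 5 were higher and 9 lower in cdk8 than in WT, against 10.6% and 13% of all genes. After mock 4 were higher and 5 lower, against 5.15% and 8.0% of all genes. With the members included, the median log2 fold change of the 53 genes tested was 0.04 for ABA in cdk8, 0.06 for ABA in WT, -0.10 for genotype under ABA and -0.12 for genotype after mock. Setting GA20ox5 in WT at its 43.5-fold ratio to the floor left these medians the same. The difference of the ABA responses was called for 3 of the 43, against 5.21% of all genes. The 3 were KS (AT1G79460) and AT1G22690 with a positive difference and NPF3 (AT1G68570) with a negative one.

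Among the precursor genes, KO (AT5G25900), an early oxidase, rose with ABA by 0.61 in cdk8 (adjusted p = 5.07e-06) and by 0.46 in WT (adjusted p = 7.7e-05). KAO2 (AT2G32440), a later oxidase, fell by 0.35 in cdk8 (adjusted p = 0.0374), a call lost in 3 of 12 fits without 1 library, and by 0.45 in WT (adjusted p = 0.0117). KS, which forms kaurene, rose by 0.59 in cdk8 (adjusted p = 0.000718) and differed by -0.10 in WT (adjusted p = 0.489), a difference of 0.69 ± 0.17 (adjusted p = 0.0333) whose call was lost in 8 of 12 fits without 1 library. NPF3, a transporter of gibberellin and other compounds, differed with ABA by -0.05 in cdk8 (adjusted p = 0.794) and rose by 1.38 in WT (adjusted p = 2.38e-06), a difference of -1.43 ± 0.22 (adjusted p = 0.00325), or -1.17 without WT ABA 3 (adjusted p = 0.000471). SEC (AT3G04240), which modifies DELLA proteins with sugar, rose by 1.08 in cdk8 (adjusted p = 4.84e-06) and by 1.32 in WT (adjusted p = 6.08e-07). PIF3 (AT1G09530), a transcription factor that DELLA proteins bind, rose by 2.68 in cdk8 (adjusted p = 1.14e-09) and by 2.52 in WT (adjusted p = 1.53e-09), and PIF1 (AT2G20180) fell by 1.05 in cdk8 (adjusted p = 1.53e-07) and by 0.67 in WT (adjusted p = 1.73e-05).

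Within the GASA family, 9 of 15 genes could be tested, and all 9 passed with ABA in both genotypes, 5 higher and 4 lower in each, against 61.0% of all genes in cdk8 and 64.7% in WT. GASA1 (AT1G75750) lost its call in cdk8 in 2 of the 12 fits without 1 library, and GASA7 (AT2G14900) its call in WT in 3. The rise of GASA3 therefore stood beside falls of other members. GASA6 (AT1G74670) averaged 13.9 RPKM in cdk8 with ABA and 317 RPKM in cdk8 after mock, and 10.8 RPKM in WT with ABA and 358 RPKM in WT after mock. It fell by 4.52 ± 0.42 in cdk8 (adjusted p = 4.95e-07) and by 5.05 ± 0.44 in WT (adjusted p = 2.25e-07). AT1G22690, of the smallest p among the falling genes, fell by 1.77 ± 0.11 in cdk8 (adjusted p = 9.45e-09) and by 2.62 ± 0.12 in WT (adjusted p = 3.36e-10), a difference of 0.85 ± 0.16 (adjusted p = 0.00943). After GASA3, the rising gene of smallest p was AT5G59845, at 2.11 ± 0.25 in cdk8 (adjusted p = 6.22e-06) and 2.50 ± 0.24 in WT (adjusted p = 6.35e-07).

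Among the 9124 tested genes with a symbol, those whose levels over the 12 libraries were most like a member's were found by the root mean square difference of centred log2 CPM, where 0 means an identical pattern. For GA2ox6 they were PCL1 (AT3G46640, also called LUX) at 0.23, NAC6 (AT5G39610) at 0.23 and COR47 (AT1G20440) at 0.25. For GID1B they were TBP1 (AT5G13820) at 0.14, SAT32 (AT1G27760) at 0.15 and RAB1A (AT5G47200) at 0.16. For GASA3 they were farther off, LEA4-5 (AT5G06760) at 0.66, ECP63 (AT2G36640) at 0.70 and MYB121 (AT3G30210) at 0.72. The nearest gene to GA20ox1 was BBX32 (AT3G21150) at 0.34, to GA20ox2 ICK1 (AT2G23430) at 0.30 and to GA3ox1 RSR4 (AT5G01410) at 0.21. GA2ox2 was nearest to STZ (AT1G27730) at 0.16 and GA2ox8 to MIF1 (AT1G74660) at 0.24. GID1A was nearest to PAP1 (AT3G16500) at 0.09 and RGL3 to OFP7 (AT2G18500) at 0.28. These values describe 12 libraries in 4 groups and carry no test.

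Hypoxia markers also moved with treatment and genotype. Their 4 genes summed to 607 to 843 CPM in cdk8 with ABA and 39.2 to 48.3 CPM in cdk8 after mock, and to 1490 to 1960 CPM in WT with ABA and 71.6 to 86.1 CPM in WT after mock. This is the same order of the 4 groups as for GA2ox6, and its part in that result was not tested.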

How the data were processed

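Total RNA of whole seedlings was sequenced in 12 libraries. Per the file headers, the authors counted fragments per gene with featureCounts 1.4.6 in paired-end mode over the exons of a TAIR10 Ensembl annotation, with no strand option, and deposited raw counts with exon lengths. The submitters' processing notes also name TopHat2 and FastQC, with no versions given in the sources used here. No member overlaps another annotated gene.

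From these counts, 21151 genes passed filterByExpr and 12451 did not. Libraries were scaled by TMM and fitted with 4 group means in edgeR 4.0.16 (R 4.3.3), and 5 contrasts were tested by the quasi-likelihood F test with Benjamini-Hochberg adjustment over all genes tested. Standard errors were derived from the F statistic, as the size of the log2 fold change over its root. A count of 3 fragments, the limit that 0 counts allow, equals 0.109 to 0.17 CPM. Exact intervals, at 95%, cover counting error only. Levels of likeness use a prior count of 2. The alternatives were RLE and upper-quartile scaling, other filters, DESeq2 1.42.0, limma-voom (limma 3.58.1), stricter thresholds, fits of only the groups compared and fits without single libraries. Gene symbols came from RefSeq, which matched 32835 of 33602 genes, and sequences from its TAIR10.1 assembly. Named genes were all 10 members, their paralogs, the called gene of smallest p in each direction of a pathway list, and the 3 nearest genes with a symbol. The members and lists were chosen with earlier results of these data known.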

Additional observations from a re-analysis of the deposited data

How the results depend on the processing

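Over the 10 members, 5 comparisons and all alternatives, 1061 single values kept their direction and their side of the threshold, 39 lost a call, 28 gained one and 10 turned direction. None of the 10 that turned had passed the test. The counts of members called for ABA in cdk8 (7 to 9) and in WT (6 to 7) moved little without any 1 library. For genotype under ABA the count of 4 became 2 when only the groups compared were fitted, at an adjusted p below 0.01 and at a minimum change of 2-fold, and 2 to 5 without single libraries. For genotype after mock the count of 2 became 0 at the stricter p and 0 at 2-fold, and 1 to 3 without single libraries. For the difference of the ABA responses the count of 0 became 2 with DESeq2, 1 without WT ABA 3 and cdk8 ABA 2 together, and 0 to 1 without single libraries. Apart from the stricter thresholds, which can only remove calls, the cause of these changes was not tested.

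The values that turned direction without a single library were these. GA20ox2 for ABA in WT ranged from -0.43 to 0.43, and was -0.43 without WT ABA 3 and cdk8 ABA 2 together. After mock, GA20ox2 ranged from -0.084 to 0.13, GA2ox8 from -0.29 to 0.34 and GASA3 from -1.97 to 2.77. The difference of the responses ranged from -0.081 to 0.64 for RGL3 and from -1.88 to 2.87 for GASA3.

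With the replicate block, which uses the replicate numbers of the column names and was added after seeing the data, 6 members were called for ABA in WT, 7 for ABA in cdk8, 2 for genotype after mock, 4 under ABA and 0 for the difference. GA2ox8 (adjusted p = 0.0542) and RGL3 (adjusted p = 0.0534) lost their calls for ABA in cdk8, and 650 of all genes were called for the difference. Deviations of same-numbered libraries correlated at -0.294 to 0.157 in 18 pairs, which showed no pairing by these numbers and cannot exclude one.

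Counts over all genes moved as well. Fits of only the groups compared called 4472 genes after mock and 2931 under ABA, against 2781 and 4999. DESeq2 called 1723 genes for the difference, against 1103, and leaving out WT ABA 3 and cdk8 ABA 2 together called 2063 for it and 4383 after mock. At an adjusted p below 0.01 the counts were 1129 after mock, 2378 under ABA and 269 for the difference. At 2-fold they were 6115 for ABA in WT, 5480 for ABA in cdk8, 1155 under ABA, 794 after mock and 448 for the difference. Upper-quartile scaling moved the median of all genes for ABA in WT to -0.145, against -0.00902, and the share of higher calls for the difference to 58.5%, against 45.4%. Without division by length, 20 of 96 family shares by group moved by more than their SD, among them GA2ox2 in all 4 groups and GID1B in cdk8 after mock (27.1%, against 25.4%), and the ratio of GID1B to GID1A moved by less than its SD. Shares of all family genes on this scale, and values of other pathway genes without single libraries, were added after seeing the data. RGL3 was the least settled member, called in WT with ABA (adjusted p = 0.021) and after mock (adjusted p = 0.035) when only the groups compared were fitted, after mock with no filter on low counts (adjusted p = 0.0487), and not called in cdk8 with ABA when only those groups were fitted (adjusted p = 0.0665) or with upper-quartile scaling (adjusted p = 0.0528). GA2ox8 in cdk8 with ABA was not called in the fit of only the groups compared either (adjusted p = 0.056), where GA20ox1 under ABA and GASA3 after mock were below the count filter. The GA20ox1 levels with ABA are close to the limit set by depth.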
